A study of Danio rerio with 18 samples.

Results

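The AP-1 immediate early genes described here are the 9 genes fosab, fosb, fosl1a, fosl2, jun, junba, junbb, jund and atf3, taken by symbol from the gene table of a zebrafish larva study. All 9 had a row among 25266 rows with a gene symbol, and all 9 were among the 22038 genes with enough reads to be tested. RNA was sequenced from 18 whole wild-type larvae of the AB strain, each library from 1 larva. At 6 days after fertilization (dpf) larvae were assigned to a resilient or a susceptible archetype, and collection followed at 7 dpf. The 4 groups were resilient basal (4 larvae, no stress), resilient stressed (5 larvae, collected 30 min after a stress of 5 min), susceptible basal (4 larvae) and susceptible stressed (5 larvae, same timing). No mutation or transgene is named for any group. The sources used here give neither the criterion for the archetypes nor the kind of stress, and basal and stressed values come from different larvae.

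AP-1 is a dimeric transcription factor built from Fos, Jun and related leucine zipper proteins. Fos proteins bind DNA only as partners of Jun proteins, while Jun proteins also pair with each other. Some family genes, such as fos, are switched on within minutes by growth factors, calcium, neuronal firing and cell stress, without new protein synthesis. The fos transcript is short-lived, and fos is widely used as a marker of recently active neurons. Atf3 is a stress-induced relative that pairs with Jun proteins and often represses transcription. Zebrafish carry duplicated copies of several members, such as junba and junbb for JunB.

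Levels are given as CPM, which are read counts scaled to library size with TMM factors, and changes as log2 fold changes with a standard error (SE) from edgeR. A gene was called when its edgeR p-value, adjusted by the Benjamini-Hochberg method over all genes tested, lay below 0.05. Levels were not compared between genes, because no transcript lengths for the build of the files were used. Libraries held 8452595 to 23801175 reads. The reads behind a member ranged from 35 for fosl1a in its lowest larva to 4642 for fosab in its highest. Markers of all 10 tissues examined were present (27 of 30 marker genes tested), as the whole-larva label requires. In tissue this mixed, fewer cells of a type and less RNA per cell cannot be told apart.

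Of the 9 genes, fosab was called in resilient larvae after stress, and no member was called in susceptible larvae. In resilient larvae 1399 of 22038 genes (6.35%) were called, 608 higher and 791 lower after stress, and 1 call among 9 members is too small a count to set the family apart from that share. In susceptible larvae 0 genes (0%) were called by edgeR, while 1642 (7.45%) had an unadjusted p below 0.05, 46 were called by DESeq2 and 0 by limma voom. Of the members, fosab, fosb, junba, junbb and atf3, had an unadjusted p below 0.05 in susceptible larvae, all with higher levels after stress. Averaged over the archetypes, where 334 genes (1.52%) were called, fosab was again the called member.

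The zebrafish Fos gene fosab was at 58.0, 43.5, 72.6 and 45.9 CPM in resilient basal larvae 1 to 4. In resilient stressed larvae 1 to 5 it was at 183, 261, 165, 266 and 181 CPM. Every resilient stressed larva was above every resilient basal larva, which was also so with RLE factors and with plain library sizes; 8.46% of all genes tested had resilient groups that did not overlap. The level rose from 55.0 ± 13.3 to 211 ± 48.3 CPM (mean ± SD, n = 4 and 5), a 3.84-fold change (95% interval 1.92 to 7.70; log2 1.94, SE 0.47, edgeR adjusted p = 0.0254). The authors' deposited table gives this comparison as basal over stressed, with a log2 value of -1.94 and an adjusted p of 0.000881. The call was lost when any 1 of the 4 resilient basal larvae or resilient stressed larva 2 was left out (log2 1.84 to 2.11, edgeR adjusted p 0.0518 to 0.0788). Pairs that stood apart in an earlier analysis of these data were also left out. Without resilient basal larvae 1 and 3 the log2 fold change was 2.25 (edgeR adjusted p = 0.203, edgeR unadjusted p = 0.00475), with 38 genes called in all. Without resilient stressed larvae 2 and 3 it was 1.94 (edgeR adjusted p = 0.129, edgeR unadjusted p = 0.00333), with 69 genes called in all.

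Susceptible larvae were less uniform in fosab than resilient larvae after stress. Before stress the 4 larvae were at 32.1, 33.4, 46.2 and 46.8 CPM, and after stress larvae 1 to 5 were at 249, 50.02, 71.6, 38.2 and 192 CPM. Larvae 1 and 5 lay within the range of the resilient stressed larvae. Larvae 2 and 3 were above the basal larvae of their own archetype but within the resilient basal range, and larva 4 was among the basal larvae. The mean went from 39.6 ± 7.98 to 120 ± 94.7 CPM (SD, n = 4 and 5), with a log2 fold change of 1.61 (SE 0.47, 95% interval 0.61 to 2.60) that did not pass the test (edgeR adjusted p = 0.409). The SD of log2 fosab among susceptible stressed larvae was 1.19, against 0.32 among resilient stressed larvae. That ratio of 3.69 exceeded the ratio of 98.96% of the 20465 genes with a mean of at least 1 CPM, for which the median ratio was 0.873. Among the other members the ratio was 2.39 for jund, 2.04 for junbb, 1.56 for fosb and 1.46 for junba. It was 1.40 for jun, 1.28 for fosl1a, 1.14 for atf3 and 0.39 for fosl2. Susceptible stressed larvae 1 and 5 held 18561791 and 21595396 reads, and larva 2, with a low fosab level, held 23801175. By mean level the order of groups was resilient stressed, susceptible stressed, resilient basal, susceptible basal; each neighbouring pair in that order overlapped.

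**Figure D1:**
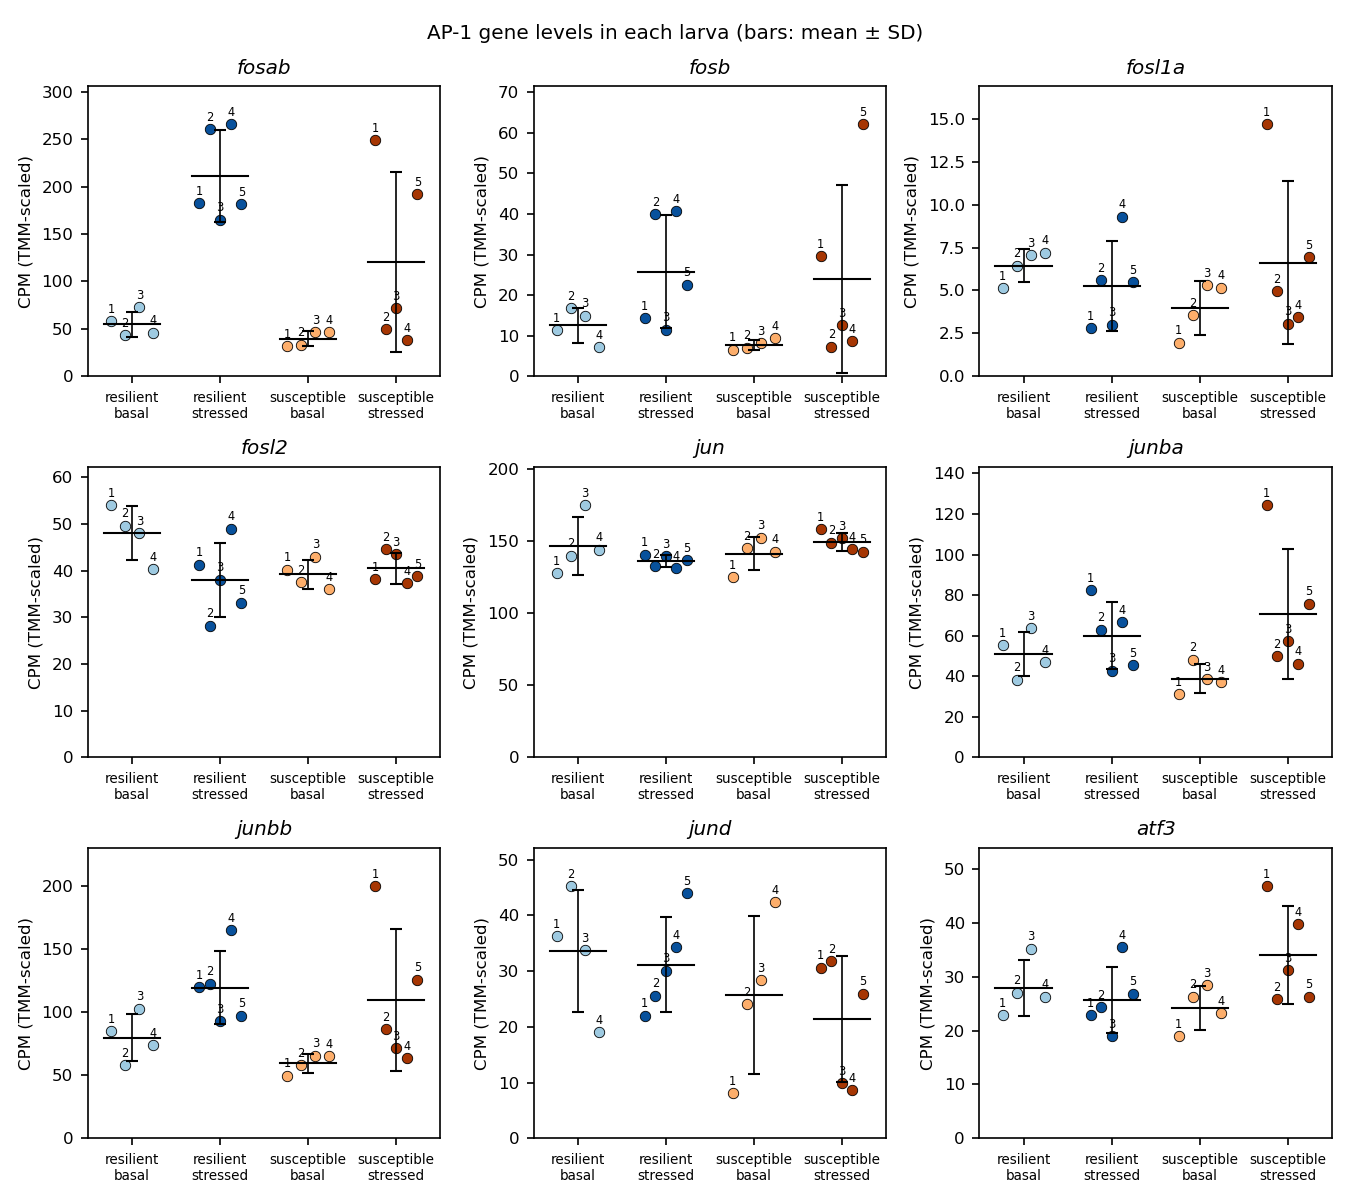
TMM-scaled CPM of the 9 AP-1 genes in each of the 18 larvae (points, numbered by larva within its group) with the group mean and SD (bars), in 4 groups on the horizontal axis. The 5 resilient stressed larvae sit between 165 and 266 CPM in fosab, all above the resilient basal larvae, while the susceptible stressed larvae run from 38.2 to 249 CPM.

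The paralogue fosb, which codes for a Fos protein that can accumulate as a stable form after repeated stimulation in rodent brain, had wide ranges after stress in both archetypes. In resilient larvae it was at 11.3, 16.7, 14.9 and 7.12 CPM before stress and at 14.3, 40.0, 11.5, 40.7 and 22.6 CPM after it. Resilient stressed larvae 1 and 3 were within the basal range and larvae 2, 4 and 5 above it, and the log2 fold change was 1.03 (SE 0.59, edgeR adjusted p = 0.337). In susceptible larvae fosb was at 6.60, 7.07, 8.11 and 9.36 CPM before stress and at 29.6, 7.31, 12.5, 8.60 and 62.2 CPM after it. Larvae 1 and 5 were again the highest, the groups overlapped, and the log2 fold change of 1.64 (SE 0.61) did not pass the test (edgeR adjusted p = 0.535). Without susceptible stressed larva 5 it was 0.90 (edgeR adjusted p = 0.853).

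The Fos-related antigen genes fosl1a and fosl2 code for Fos-type partners that lack the strong activation domain of Fos. The lowest member by reads, fosl1a, was at 5.12 to 7.21 CPM in resilient basal and 2.82 to 9.31 CPM in resilient stressed larvae, with a log2 fold change of -0.30 (SE 0.45, edgeR adjusted p = 0.765). In susceptible larvae it was at 1.96, 3.58, 5.33 and 5.16 CPM before stress and 14.7, 4.96, 3.08, 3.46 and 6.95 CPM after it. The susceptible log2 fold change was 0.77 (SE 0.46, edgeR adjusted p = 0.763), and larva 1 alone stood above every other larva in the study.

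Resilient larvae had fosl2 at 54.1, 49.6, 48.0 and 40.3 CPM before stress and at 41.3, 28.2, 38.1, 49.0 and 33.2 CPM after it. Stressed larvae 1 and 4 reached the basal range and larvae 2, 3 and 5 were below it. The log2 fold change of -0.34 (SE 0.12, unadjusted p = 0.0137) did not pass the test (edgeR adjusted p = 0.114), and without resilient stressed larva 4 it was -0.44 with an edgeR adjusted p of 0.0261. In susceptible larvae fosl2 was at 36.1 to 43.0 CPM before and 37.3 to 44.7 CPM after stress, with a log2 fold change of 0.05 (95% interval -0.21 to 0.31).

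Among the Jun genes, jun varied least. It codes for c-Jun, the DNA-binding partner of the Fos proteins and the substrate of the Jun N-terminal kinases. Resilient larvae had 128, 140, 175 and 144 CPM before stress and 141, 133, 139, 131 and 136 CPM after it. Susceptible larvae had 125, 145, 152 and 143 CPM before stress and 158, 149, 152, 144 and 142 CPM after it. Neither stress response passed the test, and the 95% interval of the log2 fold change was -0.27 to 0.06 in resilient and -0.08 to 0.24 in susceptible larvae. The interval for susceptible larvae excludes the log2 fold change of 1.61 estimated for fosab in the same larvae.

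The JunB copies junba and junbb, whose mammalian counterpart is itself an immediate early gene, had higher means after stress in both archetypes without passing the test. In resilient larvae junbb was at 84.8, 58.1, 103 and 74.1 CPM before and 120, 123, 93.0, 165 and 97.2 CPM after stress, with a log2 fold change of 0.58 (SE 0.29, edgeR adjusted p = 0.262). Stressed larvae 3 and 5 fell below the highest basal larva, and the other 3 were above all basal larvae. In susceptible larvae it was at 49.8, 58.0, 65.6 and 65.4 CPM before and 200, 86.8, 71.8, 63.8 and 126 CPM after stress, with a log2 fold change of 0.88 (SE 0.29, edgeR adjusted p = 0.474). Only stressed larva 4 reached down into the basal range with TMM factors; with plain library sizes the groups did not overlap.

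In resilient larvae junba was at 55.3, 38.3, 63.7 and 46.8 CPM before and 82.6, 62.9, 42.7, 66.7 and 45.3 CPM after stress. These groups overlapped broadly, and the log2 fold change was 0.24 (SE 0.28, edgeR adjusted p = 0.686). In susceptible larvae junba was at 31.0, 48.2, 38.6 and 36.9 CPM before and 124, 49.8, 57.1, 46.2 and 75.8 CPM after stress, with a log2 fold change of 0.87 (SE 0.28, unadjusted p = 0.00702, edgeR adjusted p = 0.442). The highest values of that group were those of larvae 1 and 5, as for fosab, fosb and junbb.

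The third Jun protein gene, jund, whose mammalian counterpart is expressed in resting cells, split larvae in another way. It was at 36.3, 45.3, 33.8 and 19.0 CPM in resilient basal and 22.0, 25.6, 30.1, 34.2 and 43.9 CPM in resilient stressed larvae. Susceptible basal larvae were at 8.05, 24.02, 28.3 and 42.3 CPM and susceptible stressed larvae at 30.6, 31.8, 9.86, 8.68 and 25.9 CPM. Susceptible basal larva 1 and susceptible stressed larvae 3 and 4 were below 10 CPM, and all other larvae were at 19.0 CPM or above. The log2 fold change after stress was -0.11 (SE 0.45) in resilient and -0.24 (SE 0.45) in susceptible larvae, neither past the test. In the order of the RefSeq annotation of assembly GRCz12tu, jund is followed by pgpep1 and then upf1. Group means were 4.66 to 6.29 CPM for pgpep1 (SDs of 0.56 to 1.42) and 109 to 114 CPM for upf1 (SDs of 4.94 to 7.26). Over the 18 larvae the correlation with jund was 0.02 for pgpep1 and -0.03 for upf1.

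The stress-response gene atf3 was at 22.9, 27.0, 35.2 and 26.3 CPM in resilient basal and 22.9, 24.3, 19.0, 35.5 and 26.8 CPM in resilient stressed larvae. Those groups overlapped, with a log2 fold change of -0.12 (SE 0.20, edgeR adjusted p = 0.801). Susceptible basal larvae were at 18.9, 26.3, 28.5 and 23.3 CPM and susceptible stressed larvae at 46.9, 25.8, 31.2, 39.8 and 26.3 CPM. The log2 fold change in susceptible larvae was 0.49 (SE 0.20, unadjusted p = 0.026, edgeR adjusted p = 0.584), and larvae 1, 3 and 4 were above all basal larvae of the archetype. Here larva 5, high in fosab and fosb, was within the basal range, and larva 4, low in both, was the second highest.

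**Figure D2:**
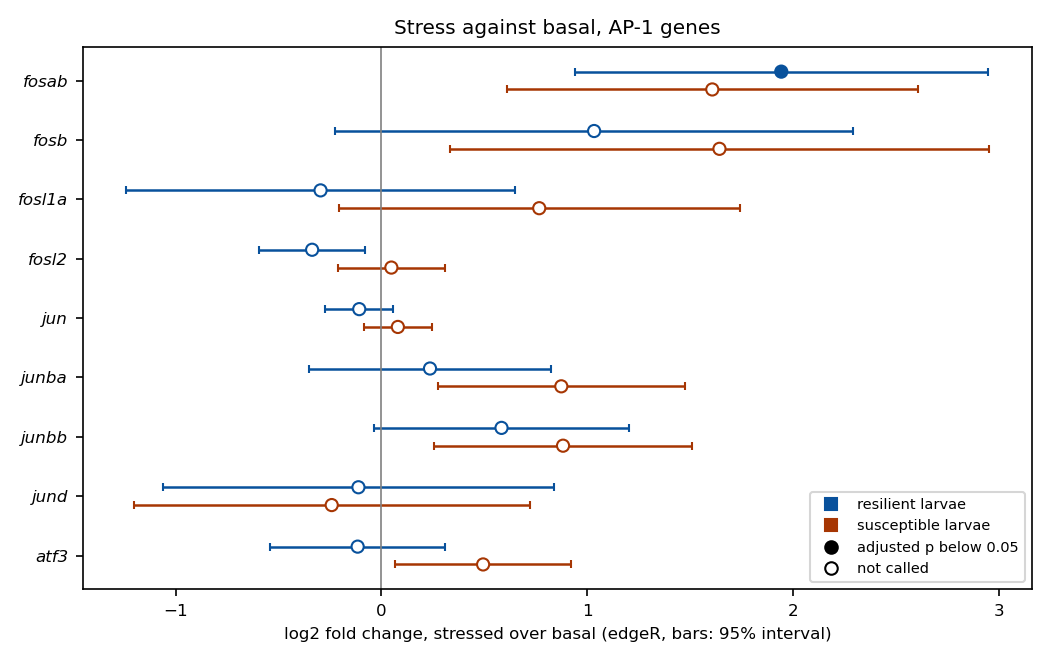
Log2 fold change of each AP-1 gene after stress (horizontal axis) in resilient and in susceptible larvae, from edgeR, with 95% intervals as bars and filled points where the adjusted p was below 0.05. The filled point is fosab in resilient larvae at 1.94; in susceptible larvae 8 of 9 point estimates are above 0 and none is filled.

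The stress log2 fold changes of the 9 genes had a median of -0.11 in resilient larvae, with 4 of 9 above 0, and of 0.77 in susceptible larvae, with 8 of 9 above 0. Over all genes tested the medians were 0.00406 and -0.00410, with 50.8% and 49.0% of genes above 0. Within an archetype the 9 estimates come from the same larvae and are not separate observations. Whether a response differed between archetypes was tested as an interaction, for which 31 genes (0.141%) were called. No member was called (0 of 9 with edgeR, DESeq2 or limma voom), and 2 had an unadjusted p below 0.05, as did 13.1% of all genes, so these do not stand out. They were fosl2, with a difference of 0.38 on the log2 scale (susceptible minus resilient response, SE 0.18, unadjusted p = 0.0411, edgeR adjusted p = 0.359), and atf3, with 0.61 (SE 0.28, unadjusted p = 0.0474, edgeR adjusted p = 0.374). For fosab the difference was -0.34 with a 95% interval of -1.69 to 1.02, so the size of its response was not shown to differ. Averaged over both archetypes, fosab rose by 1.77 (SE 0.33, edgeR adjusted p = 0.0259), while junbb (0.73, edgeR adjusted p = 0.0792), fosb (1.34, edgeR adjusted p = 0.116) and junba (0.55, edgeR adjusted p = 0.151) did not pass. With DESeq2 the averaged comparison called those 4 genes, among 977 genes called in all. The averaged call of fosab was lost without resilient basal larva 1, resilient stressed larva 2 or susceptible basal larva 2 (log2 1.74 to 1.79, edgeR adjusted p 0.0529 to 0.0634).

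Before stress, the archetypes did not differ in any member by the test. All 9 point estimates were lower in susceptible larvae, from -0.05 for jun to -0.72 for fosl1a on the log2 scale, with a median of -0.40 against 0.00284 over all genes. No gene in the study (0%) was called by edgeR in the basal comparison, 1311 had an unadjusted p below 0.05, 11 were called by DESeq2 and 0 by limma voom. The smallest unadjusted p among the members was that of fosl2 (-0.29, SE 0.13, unadjusted p = 0.0373, edgeR adjusted p = 0.827), at 40.3 to 54.1 CPM in resilient and 36.1 to 43.0 CPM in susceptible basal larvae. No member had basal groups that did not overlap (3.29% of all genes did), although fosl1a did with plain library sizes. The 9 estimates come from the same 8 larvae and are not separate observations.

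After stress, 782 genes (3.55%) differed between the archetypes by edgeR, and none of the 9 members did, with edgeR, DESeq2 or limma voom. Susceptible stressed larvae had less fosab on average (log2 -0.81, SE 0.42, 95% interval -1.70 to 0.08, edgeR adjusted p = 0.302) and more atf3 (0.40, SE 0.19, unadjusted p = 0.0485, edgeR adjusted p = 0.248). An unadjusted p below 0.05 was found for 1 of 9 members and for 19.9% of all genes. The ranges of jun did not overlap, at 131 to 141 CPM in resilient stressed and 142 to 158 CPM in susceptible stressed larvae. The step was small, however, with a log2 difference of 0.13 (SE 0.07, edgeR adjusted p = 0.336), and 4.98% of all genes had ranges that did not overlap in this comparison. For stress in susceptible larvae 2.73% of all genes had ranges that did not overlap, and no member was among them.

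Within groups, a set of members went up and down together from larva to larva. With group means of log2 CPM subtracted, fosab had a Pearson correlation over the 18 larvae of 0.89 with junbb, 0.82 with fosb, 0.77 with junba and 0.73 with fosl1a. The copies junba and junbb had 0.87 with each other. Susceptible stressed larvae carry part of this: over the other 13 larvae the correlation of fosab was 0.88 with junbb, 0.68 with fosb, 0.50 with junba and 0.66 with fosl1a. By contrast, fosl2 and jun had -0.06 and 0.22 with fosab, and atf3 had 0.31 with fosab and 0.63 with fosl1a. The gene jund had 0.67 with fosl1a, above some pairs among these 5 genes, and 0.46 with fosab. Some of these values rest on few larvae: without the 2 larvae farthest from the median of the gene named first, fosl1a and junba went from 0.54 to 0.26, while fosab and junbb had 0.84. The genes of a pair share libraries and depth; the correlation of a member with log10 library total, group means subtracted, lay between -0.37 for atf3 and 0.22 for jund, and was 0.11 for fosab.

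**Figure D3:**
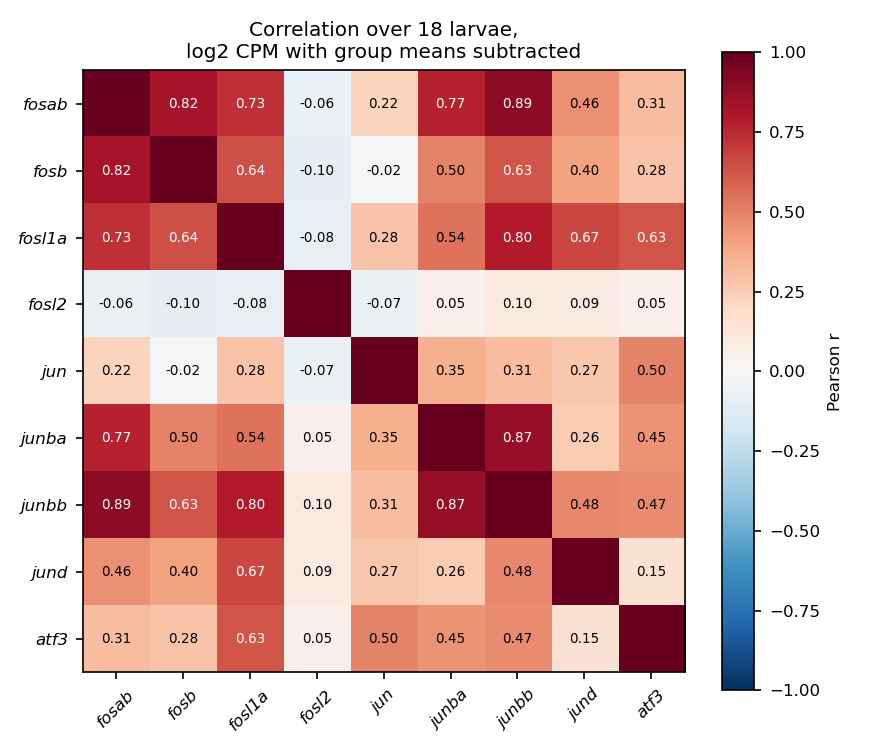
Pearson correlation of log2 CPM between pairs of AP-1 genes over 18 larvae with group means subtracted, as colour and as a printed value, with the 9 genes on both axes. The block of fosab, fosb, fosl1a, junba and junbb ranges from 0.50 to 0.89 over all larvae, jund has 0.26 to 0.67 with these 5 genes, and the row of fosl2 lies between -0.10 and 0.10.

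Likeness to fosab was ranked among the 20456 genes outside the AP-1 members with a mean of at least 1 CPM. The most similar were ier2a (Pearson r = 0.95 over 18 larvae), LOC100331484 (0.93), ptgs2a (0.93), klf2b (0.91) and jdp2b (0.90). The member junbb, left out of this ranking, had 0.903 with fosab over the 18 larvae, between klf2b and jdp2b. Ier2 is an immediate early nuclear protein, Ptgs2 is the inducible prostaglandin synthase and Klf2 is a zinc finger factor induced by blood flow in endothelium. With group means subtracted jdp2b came first (0.90), and ier2a had 0.87. Over the 13 larvae outside the susceptible stressed group these values were 0.63 for jdp2b and 0.56 for ier2a. Over the 18 larvae junba had 0.87 with its copy junbb. Outside the members the genes most similar to junba were mapk7 (0.79), zgc:162730 (0.76), si:ch73-335l21.4 (0.75), cebpb (0.73) and stk25b (0.71), and mapk7 codes for ERK5, a mitogen-activated kinase. For jun they were si:dkey-194e6.1 (0.78), cyp46a1.2 (0.76), c1qtnf5 (0.76), LOC103910678 (0.73) and ttbk1b (0.73). For atf3 they were mir137-2 (0.83), tmx2b (0.74), si:dkeyp-75b4.10 (0.74), slc13a1_1 (0.73) and tubb5 (0.70).

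Jdp2 is a leucine zipper protein that pairs with Jun proteins and represses AP-1 in mammals. In the gene order of assembly GRCz12tu, fosab is followed by batf and then jdp2b. In resilient larvae jdp2b was at 5.21, 9.12, 11.0 and 8.42 CPM before and 13.2, 25.4, 9.24, 23.6 and 18.3 CPM after stress. In susceptible larvae it was at 4.98, 4.19, 5.57 and 7.67 CPM before and 26.2, 6.36, 9.78, 3.82 and 34.1 CPM after stress. Susceptible stressed larvae 1 and 5 were again the highest, and neither response was called (log2 1.08, SE 0.54, edgeR adjusted p = 0.260, and 1.53, SE 0.55, edgeR adjusted p = 0.515). Its correlation with fosb, a pair singled out after its values were seen, was 0.89 with group means subtracted. The gene between fosab and jdp2b, batf, had group means of 0.58 to 1.03 CPM and a correlation of -0.16 with fosab on the same scale. The second zebrafish Fos copy, fosaa, lay between 2.58 and 6.28 CPM in all larvae, with -0.08 to fosab. Strand was not given for the counts, so reads of fosab and of the overlapping si:ch211-153j24.3 cannot be separated; the latter had group means of 3.06 to 3.58 CPM.

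**Figure D4:**
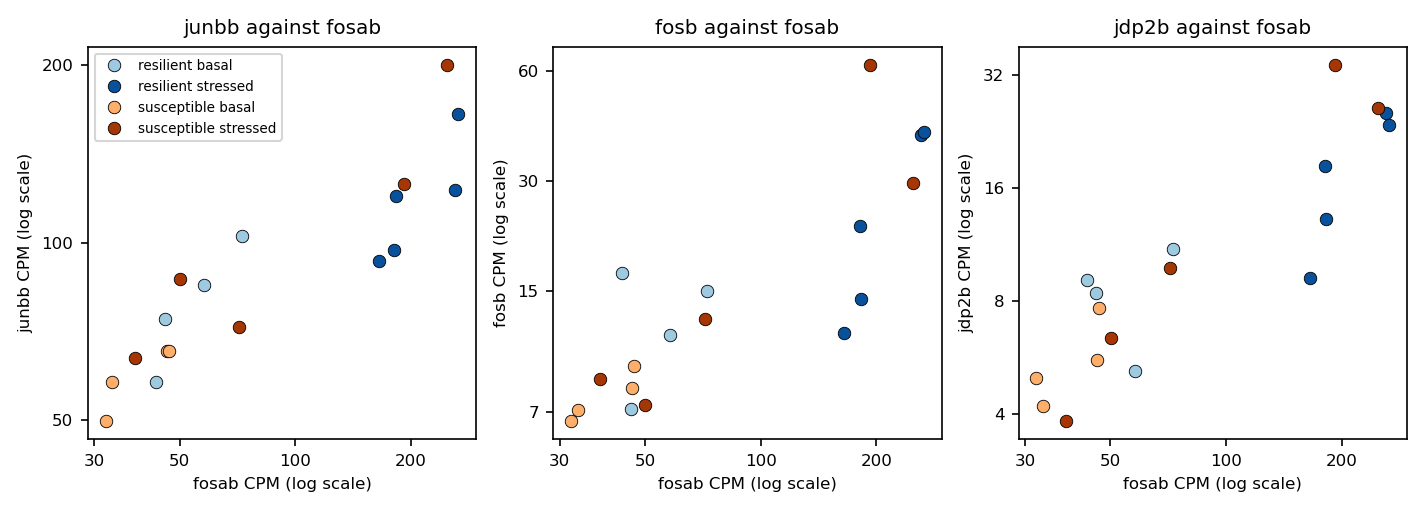
CPM of junbb, fosb and jdp2b (vertical axes) against fosab (horizontal axes), all on log scales, with 1 point per larva coloured by group. In fosab, susceptible stressed larvae 1 and 5 lie with the resilient stressed larvae, at 249 and 192 CPM respectively, and the other 3 lie with the basal larvae. Larva 1 in junbb and jdp2b, and larva 5 in fosb and jdp2b, lie above all resilient stressed larvae.

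The following lists are read against the 6.35% of all genes called in resilient larvae after stress (608 rose and 791 fell). Of 16 tested AP-1 and AP-1-like genes outside the 9 members, 0 rose and 1 fell, with a median log2 fold change of -0.25 against 0.00406 over all genes. The gene that fell was batf3, the neighbour of atf3, at 1.92, 0.56, 1.19 and 1.39 CPM before and 0.24, 0.41, 0.46, 0.40 and 0.35 CPM after stress. Its log2 fold change was -1.70 (SE 0.47, edgeR adjusted p = 0.0393); no such call was made by DESeq2. Of 23 kinases that act on AP-1, 0 rose and 1 fell: map2k2a, which codes for a kinase of ERK, at -0.40 (SE 0.09, edgeR adjusted p = 0.0127). Of 21 genes of the serum response factor and CREB group, which drive fos transcription, 1 rose, the MADS box factor gene mef2aa at 0.22 (SE 0.06, edgeR adjusted p = 0.0436), and 0 fell. A single call in lists of this size is near the share among all genes.

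A list of genes that act on MAP kinase signalling or on AU-rich mRNAs was also examined in resilient larvae. It held MAP kinase phosphatases, spry and spred genes, and factors that bind AU-rich mRNAs. Of its 19 tested genes, 3 rose and 0 fell, beside 6.35% called in either direction over all genes. These were dusp2 (0.58, SE 0.15, edgeR adjusted p = 0.0290) and dusp16 (0.54, SE 0.15, edgeR adjusted p = 0.0456), which remove phosphate from MAP kinases, and the decay factor zfp36l2 (0.25, SE 0.07, edgeR adjusted p = 0.0342). The median of the list was -0.07. Without resilient basal larvae 1 and 3, and likewise without resilient stressed larvae 2 and 3, 0 genes were called in this list. The same held for the lists of AP-1-like genes, kinases, serum response and CREB factors and, described further on, Atf3 partners. Over all genes 38 and 69 were called in those fits.

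Of 33 other immediate early genes tested in resilient larvae, 7 rose and 2 fell, where 608 of all 22038 genes rose and 791 fell, with a median of 0.15 against 0.00406 over all genes. Those that rose included egr1, a zinc finger factor of the early response, which was at 33.6, 27.3, 26.9 and 27.6 CPM before and 50.8, 60.9, 65.5, 91.9 and 56.2 CPM after stress (log2 1.18, SE 0.18, edgeR adjusted p = 0.00281). They also included ier2a (1.45, SE 0.23, edgeR adjusted p = 0.00398) and ptgs2b (1.74, SE 0.34, edgeR adjusted p = 0.00971), and the others were klf2b, egr2a, egr3 and npas4a. Those that fell were socs3b, a feedback inhibitor of cytokine signalling (-0.76, SE 0.12, edgeR adjusted p = 0.00269), and csrnp1b (-0.45, SE 0.13, edgeR adjusted p = 0.0401). Without resilient basal larvae 1 and 3, 0 of the 33 rose or fell, with 38 called over all genes. Without resilient stressed larvae 2 and 3, 3 rose and 1 fell, with 69 called over all genes. In susceptible larvae none of the 33 was called, where 0 of all 22038 genes were called. There egr1 was at 23.2 to 30.5 CPM before and 57.1, 47.4, 31.3, 34.6 and 44.1 CPM after stress (edgeR adjusted p = 0.301). All 5 stressed larvae were above the basal larvae, and 2.73% of all genes had susceptible groups that did not overlap.

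Of 29 genes often described as AP-1 targets, 0 rose and 5 fell in resilient larvae (6.35% of all genes were called, more of them lower than higher), with a median of -0.14. They belong to the extracellular matrix and its turnover. They were the metalloproteinase inhibitor gene timp2b (-1.73, SE 0.20, edgeR adjusted p = 0.000726), the fibronectins fn1b (-1.02) and fn1a (-0.72), the gelatinase mmp2 (-0.44) and the urokinase plaua (-1.49). Other genes of this kind in the list, such as timp2a, plaub, mmp9 and mmp14a, were not among those called. Whether matrix genes were called more often than the rest of the list was not tested. Without resilient basal larvae 1 and 3 the count of called genes was 1 of 29, and without resilient stressed larvae 2 and 3 it was also 1. Over all genes 38 and 69 were called in those fits. The response of timp2b differed between archetypes (difference of 1.88, SE 0.29, edgeR adjusted p = 0.0154), as did that of socs3b (1.01, SE 0.16, edgeR adjusted p = 0.0217). The susceptible responses were 0.15 (SE 0.20) for timp2b and 0.25 (SE 0.12) for socs3b, neither called, against -1.73 and -0.76 in resilient larvae. Over all genes 31 (0.141%) were called for this difference, and 5 to 132 with 1 larva left out. Of 14 stress-kinase and integrated stress partners of Atf3, 3 rose in resilient larvae and 1 fell, beside the same 6.35% over all genes. Those that rose were ddit3 (0.58, SE 0.11, edgeR adjusted p = 0.00855), cebpg (0.34, SE 0.07, edgeR adjusted p = 0.0110) and ppp1r15a (0.55, SE 0.12, edgeR adjusted p = 0.0123), and the endoplasmic reticulum chaperone hspa5 fell (-0.93, SE 0.20, edgeR adjusted p = 0.0144), while atf3 itself was not called.

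In susceptible larvae after stress, and between archetypes before stress, 0 members of each of these 7 lists were called by edgeR. In both comparisons 0 of all 22038 genes were called, so these counts do not set the lists apart. Between stressed archetypes 3.55% of all genes were called, which is 782 genes, and 197 to 1730 with 1 larva left out. Called among the 155 list genes tested were mapk9, map2k2a, timp2b, plaua and socs3b, higher in susceptible larvae. Lower in susceptible larvae were per1a, npas4a, chac1, cebpg and ddit3. Of these, mapk9 codes for a Jun N-terminal kinase and was at 29.4 to 34.5 CPM in resilient stressed and 35.3 to 38.7 CPM in susceptible stressed larvae (log2 0.25, SE 0.06, edgeR adjusted p = 0.0293). The neuronal activity factor npas4a was at 51.7 to 66.3 CPM in the former and 24.5 to 46.8 CPM in the latter (log2 -0.72, SE 0.17, edgeR adjusted p = 0.0293). In this comparison 4.98% of all genes had ranges that did not overlap.

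Tissue markers moved with some of these comparisons. Summed lens markers (3 of 3 tested) were at 1294 to 1595 CPM in resilient basal and 1603 to 2125 CPM in resilient stressed larvae, and skin keratinocyte markers (3 of 3) at 1599 to 2485 and 2484 to 2837 CPM. Macrophage markers (2 of 3 tested) were at 33.1 to 73.5 CPM before and 12.1 to 35.6 CPM after stress in resilient larvae. Neuronal markers (3 of 3) were at 1270 to 1381 and 1276 to 1458 CPM in the same groups. Between stressed archetypes, macrophage markers were at 12.1 to 35.6 CPM in resilient and 42.4 to 72.0 CPM in susceptible larvae. Exocrine pancreas markers (3 of 3) were at 8762 to 12681 and 4179 to 8237 CPM in the same order. Ranges of the other tissues overlapped in that comparison. Among susceptible basal larvae, exocrine pancreas markers ran from 1319 to 11149 CPM. With group means subtracted, fosab correlated with summed neuronal markers at 0.55, with fast muscle markers (2 of 3 tested) at -0.49, with lens markers at 0.00225 and with skin markers at 0.03. The part of tissue composition in the response of fosab and in the differences between archetypes was not tested.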

How the data were processed

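RNA-seq of 18 single whole larvae was used. Per the file headers, the table that the authors deposited holds raw counts for each gene symbol. The submitters' processing notes name the danRer11 build and the tools cutadapt, STAR and DESeq2; the sources used here give no versions, read counter, annotation or strandedness. The authors also deposited log2 fold changes and adjusted p-values, per the file headers, which are quoted only as theirs.

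Of 25281 rows, 15 carried date-like names in place of a gene (0.0613% to 0.0698% of reads) and were left out. edgeR 4.0.16 (R 4.3.3) fitted all 18 larvae with 4 group means, TMM factors, filterByExpr and the robust quasi-likelihood F test, with Benjamini-Hochberg adjustment over 22038 genes and a threshold of 0.05. SE was obtained by dividing the size of the log2 fold change by the root of F, and 95% intervals use the t distribution of that fit. Log2 CPM used a prior count of 2. P-values measure the spread between larvae, and the sources used here name no clutch or day. The 4 groups share a common estimate of the spread of each gene. The SE of fosab in resilient larvae therefore also reflects its wider spread among susceptible stressed larvae. In turn, its SE in susceptible larvae also reflects the narrower spread of the other groups. The SD of log2 fosab was 0.29 to 0.34 in those groups and 1.19 among susceptible stressed larvae. The interval of fosab in susceptible larvae may therefore be too narrow. The closest of 32 pairs of larvae within groups differed by a chi-square of 6.50 per degree of freedom, beyond sampling noise.

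The members and the 7 lists were chosen with earlier results of these data known. Of 174 list entries, 159 were matched by symbol, RefSeq synonym or a numbered copy of the symbol, and 155 were tested. All members are named. From lists, called genes by smallest p are named, with values for up to 4 a list. Likeness is the 5 highest Pearson correlations of log2 CPM with genes outside the members, for fosab, jun, junba and atf3. Alternatives were DESeq2 1.42.0, limma voom (3.58.1) with quality weights, RLE and upper-quartile factors, other low-count filters, only the groups compared, replicate blocks, a fold threshold of 1 on the log2 scale, and larvae left out. The steps were tested on simulated data.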

Additional observations from a re-analysis of the deposited data

How the results depend on the processing

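Of 1602 values of a member under an alternative, 1545 kept their direction and side of the threshold. Another 17 lost and 4 gained the call, and 36 turned sign, all 36 uncalled before and after. Only fosab in resilient larvae and fosab in the averaged response were called at the start, so only these could lose the call. They kept it in 21 of 30 and 21 of 29 alternatives, respectively. Most of the 1545 values were uncalled and stayed so. The number of members called for stress in resilient larvae was 1, and was 0 without resilient basal larvae 1 and 3 and without resilient stressed larvae 2 and 3, and 0 to 2 with 1 larva left out. Over its 30 alternatives the log2 fold change of fosab lay between 1.80 and 2.25 with an edgeR, DESeq2 or limma adjusted p of 0.000737 to 0.203; 21 of 30 kept the call. For the averaged stress response the count was 1, and was 0 without resilient basal larvae 1 and 3, resilient stressed larvae 2 and 3 or susceptible basal larvae 1 and 2, 0 to 1 with 1 larva left out, and 4 with DESeq2. All genes called for stress in resilient larvae went from 1399 to 38 and 69 without those resilient pairs, and to 284 with a log2 fold threshold of 1. With only the compared groups fitted that number was 640, and fosab in resilient larvae had a log2 fold change of 1.94 (edgeR adjusted p = 0.00402). Genes called between stressed archetypes went from 782 to 1543 with DESeq2 and 1551 with limma voom. For the difference of responses they went from 31 to 396 and 76, and for the averaged response from 334 to 977 and 446. With 1 larva left out these 3 numbers ran from 197 to 1730, from 5 to 132 and from 55 to 679. For stress in resilient larvae the number ran from 398 to 1918. Without susceptible stressed larva 5 the log2 fold change of fosb in susceptible larvae went from 1.64 to 0.90, and its difference between stressed archetypes from -0.09 to -0.83. The causes were not tested. Depth limits fosl1a and fosb most, with as few as 35 and 67 reads in a larva.

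Replicate numbers did not pair larvae: with group means subtracted, 25 same-numbered pairs by title number correlated at -0.27 to 0.14 (2 over 0.1) and 19 pairs by bracket number at -0.14 to 0.21 (4 over 0.1). With either number as a replicate block, 0 members were called for stress in resilient larvae (fosab 1.92, edgeR adjusted p = 0.0622, and 1.80, edgeR adjusted p = 0.0872) and 0 for the averaged response, while 863 and 427 genes in all were called in resilient larvae. With the bracket number as a block, junba in resilient larvae was -0.0815, jun in susceptible larvae -0.0144, jun 0.0355 and atf3 0.0101 in the basal comparison, and fosl1a -0.0375 and atf3 -0.00180 in the averaged response.

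Other sign changes were atf3 in resilient larvae (0.0360) and fosl2 between stressed archetypes (-0.0274) without resilient stressed larvae 2 and 3, jun (0.00739) and jund (0.0774) in the basal comparison without susceptible basal larvae 1 and 2, fosl1a averaged (-0.0225) with limma voom, and jun averaged (0.0131) without resilient basal larvae 1 and 3. With 1 larva left out, log2 fold changes that crossed 0 ran as follows. In resilient larvae jund ran from -0.31 to 0.0689 and atf3 from -0.26 to 0.0208, and in susceptible larvae jund from -0.55 to 0.13. In the basal comparison jun ran from -0.12 to 0.0389. Between stressed archetypes fosb ran from -0.83 to 0.14, fosl1a from -0.17 to 0.67, junba from -0.0676 to 0.38 and junbb from -0.46 to 0.0214. For the difference of responses fosb ran from -0.14 to 0.84, junbb from -0.0320 to 0.45 and jund from -0.44 to 0.24. Averaged, fosl1a ran from -0.0174 to 0.32, jun from -0.0443 to 0.0365 and jund from -0.33 to 0.0105.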
